A study of Mus musculus with 4 samples.

Results

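Cardiomyocyte wells with low endothelial, fibroblast and macrophage markers were taken from the hearts of Mst1/2-deficient (KO) and wild-type (WT) mice. They were wells of the cardiomyocyte fraction with at least 10000 UMIs (unique molecular identifiers, 1 per captured RNA molecule) and 300 genes. Of the UMIs outside mitochondrial (mt-) and haemoglobin (Hba-, Hbb-) genes, 12 cardiomyocyte genes (Myh6, Tnnt2, Tnni3, Actc1, Ttn, Ryr2, Myl2, Myl3, Pln, Tnnc1, Actn2 and Mb) had to make up at least 5%. Each of 3 marker sums, endothelial (Fabp4, Cdh5, Kdr, Ly6c1), fibroblast (Dcn, Col1a1, Col3a1) and macrophage (Lyz2, C1qa, C1qb, C1qc), had to stay under 0.2%. The rule sets no limit on other cells: of all their UMIs, single wells it took held up to 15.01% erythroid markers (KO2). Of UMIs outside mt-, Hba- and Hbb- genes, single wells held up to 0.925% neutrophil markers (WT2) and 0.523% pericyte and smooth muscle markers (WT2). The rule took 640 wells, of 1133 kept wells in the cardiomyocyte fraction and 3990 in the series. Since these values chose the wells, they are given below as a description only.

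The KO group was labelled Mst1/2-deficient and the WT group WT, and all mice were C57BL/6. The allele, any driver that deletes it, the age, and any injury or treatment of the mice are not given in the labels, although the series title places the kinases in the setting of infarction. Per the per-well reports, the cardiomyocyte fraction of each genotype lay on 1 chip and came from 2 animals, called here KO1, KO2, WT1 and WT2. The animal is therefore the replicate (n = 2 per genotype), wells are not, and within this fraction genotype and chip cannot be told apart. With 4 animals an exact permutation test cannot go below p = 0.333.

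MST1 (gene Stk4) and MST2 (gene Stk3) are the core kinases of the Hippo pathway. They activate the LATS kinases, which keep the coactivators YAP and TAZ out of the nucleus; there YAP and TAZ act through TEAD transcription factors. Adult ventricular cardiomyocytes are known for high levels of ventricular myosin light chains and of oxidative enzymes, whereas the atrial light chains, sarcolipin and the natriuretic peptides are typical of atrial or fetal muscle, and the peptides also of stressed ventricle.

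In the wells taken, all 12 markers were present in every animal, as the rule demands of their sum. Their median share was 6.54% in KO1 and 8.96% in KO2, against 9.05% in WT1 and 10.1% in WT2. The lowest well inside the rule stood at 5.018% and the highest just outside at 4.979%. Endothelial sums ended at 0.198% inside and began at 0.202% outside, fibroblast sums at 0.185% and 0.203%, and macrophage sums at 0.1996% and 0.2045%. Median levels of Tnnt2, cardiac troponin T, were 159 UMIs per 10000 in KO1 and 172 in KO2, against 165 in WT1 and 168 in WT2; here and below, levels per 10000 are of UMIs outside mt-, Hba- and Hbb- genes. The ventricular light chain Myl2 had medians of 38.4 per 10000 in KO1 and 78.5 in KO2, against 89.5 in WT1 and 117 in WT2. Troponin T was thus much alike across the animals, while Myl2 was lowest in KO1.

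KO1 stood apart from the other 3 animals before any gene was compared. The rule took 66 of its 264 kept wells (25%, 95% Clopper-Pearson interval 19.9 to 30.7%) and 294 of 385 in KO2 (76.4%, 71.8 to 80.5%), against 104 of 210 in WT1 (49.5%, 42.6 to 56.5%) and 176 of 274 in WT2 (64.2%, 58.2 to 69.9%). These intervals cover counting error only. The wells of KO1 held a median of 58714 UMIs and those of KO2 220959.5, against 102506 in WT1 and 126239.5 in WT2. Mitochondrial transcripts took a median of 59.6% of a KO1 well and 36.4% of a KO2 well, against 37.9% in WT1 and 35.9% in WT2. With each well thinned to 10000 UMIs outside mt-, Hba- and Hbb- genes, which left out 10 wells of KO1 and 1 of KO2, against 7 of WT1 and 9 of WT2, wells showed a median of 1074.5 genes in KO1 and 1555 in KO2, against 1432 in WT1 and 1538 in WT2. In none of the 4 measures did both KO animals lie on 1 side of both WT animals, and the exact two-sided permutation p was 1 for the share of wells, the UMIs and the genes, and 0.667 for the mitochondrial share. Summed per animal, the wells held 5605035 UMIs in KO1 and 72787373 in KO2, against 13417085 in WT1 and 29736767 in WT2. KO1 therefore had the fewest counts, and many differences are also given without it. The 2 chips shared 64 well barcodes in this fraction, of which 21 belonged to wells taken on both.

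**Figure D1:**
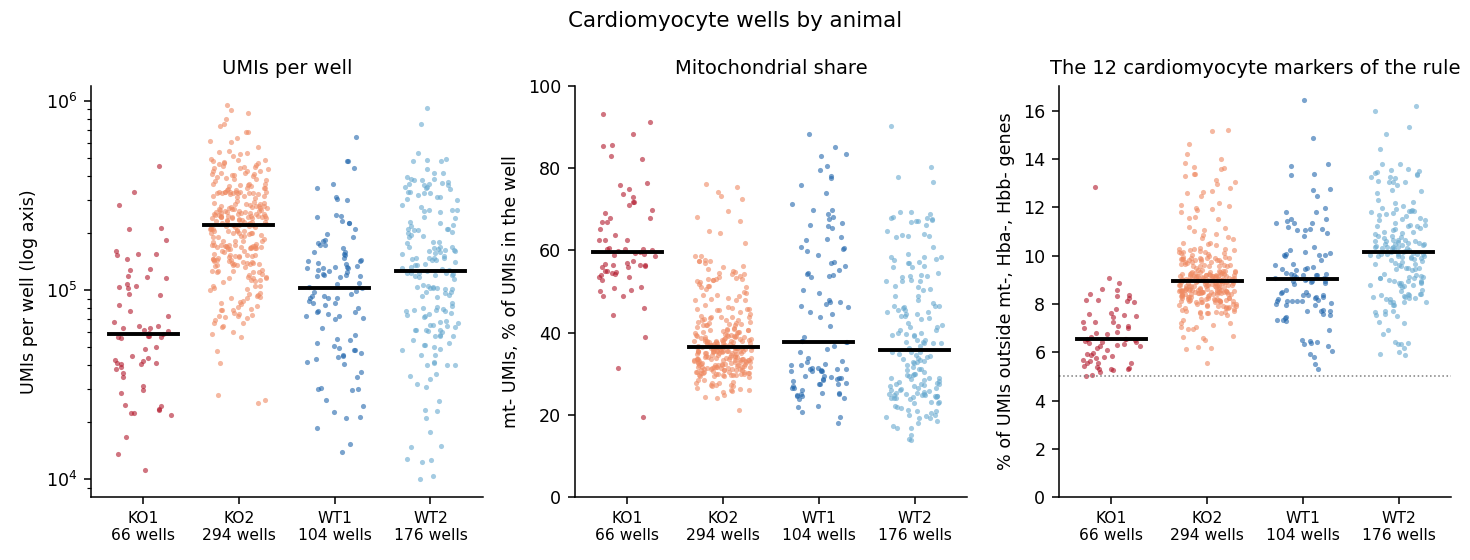
Each point is 1 well, grouped by animal, with a bar at the median. UMIs per well (log axis), the mitochondrial share and the share of the 12 marker genes are shown, with the 5% limit dotted. Wells of KO1 sit lowest for UMIs and markers and highest for the mitochondrial share (median 59.6%), while KO2, WT1 and WT2 overlap.

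The targeted kinases, Stk4 at chr2:164070322-164155524 and Stk3 at chr15:34875496-35178921 (GRCm38), were measured at low levels in every animal. Stk4 stood at 2.17 CPM (UMI counts scaled to the TMM-adjusted total of the animal, mitochondrial UMIs included) in KO1 and 4.59 in KO2, against 10.8 in WT1 and 6.39 in WT2. Both KO values were below both WT values, but the log2 difference of -1.32 ± 0.92 (SE) did not pass the test (edgeR adjusted p = 0.987). Stk3 stood at 7.10 CPM in KO1 and 5.83 in KO2, against 2.35 in WT1 and 4.78 in WT2 (log2 0.85 ± 0.95, edgeR adjusted p = 0.987). Only 11 Stk4 UMIs were counted in KO1, and which part of either gene is deleted is not given in the labels, so these counts do not check the labels.

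UMI counts summed per animal were compared with edgeR's quasi-likelihood test over 12240 genes. No gene passed an adjusted p of 0.05 in either direction (0.0% called), and 468 genes had an unadjusted p under 0.05 (3.82%), of which 332 were higher in KO (2.71%) and 136 lower (1.11%). DESeq2, run on the same sums as an alternative, called 65 of 11528 genes higher (0.564%) and 11 lower (0.0954%). The edgeR count depended on single animals: it was 4 higher, all haemoglobin genes, and 0 lower without KO1, 92 higher and 76 lower without KO2, 9 and 1 without WT1, and 12 and 2 without WT2, each time with the lone animal assumed to vary like the others. Of the 76 genes that DESeq2 called, 49 had UMIs in under 10% of the wells of 1 animal of the higher genotype, and in 57 of the 65 higher genes the KO1 value was over 3 times that of KO2. For 1924 genes both KO values were above both WT values (15.7%), and for 2351 both were below (19.2%), together 34.9%; 46.4% of all genes had a log2 difference above 0 and 53.6% below 0. These shares are the background for every list that follows, as is the median log2 difference over all genes, -0.09.

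Genes of the fetal and stress programme of heart muscle stood higher in KO wells. Of the 19 tested, of 20 listed, 17 had a log2 difference above 0, 14 had both KO animals above both WT animals, and 11 had an unadjusted p under 0.05; none passed the adjusted threshold in edgeR and 4 passed it in DESeq2. Nppa, Sln and Myl4 are also in the atrial list below. The list had a median log2 difference of 1.22, and 0.95 without KO1. Nppa, which encodes atrial natriuretic peptide, stood at 1554 CPM in KO1 and 415 in KO2, against 196 in WT1 and 205 in WT2 (log2 2.29 ± 0.60, edgeR adjusted p = 0.987, DESeq2 adjusted p = 0.0236). Without KO1 its log2 difference was 1.05. In KO1, 1 well held 66.9% of the Nppa UMIs, at 145.9 per 10000. That well is also the KO1 well richest in the atrial genes described below. In single wells, too, the medians of both KO animals lay above those of both WT animals. Median Nppa was 11.1 per 10000 in KO1 and 5.97 in KO2, against 1.93 in WT1 and 1.4 in WT2, and the 10% to 90% range was 3.85 to 20.9 in KO1 and 2.28 to 9.27 in KO2, against 0.151 to 4.67 in WT1 and 0.119 to 4.11 in WT2.

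Nppb, which encodes brain natriuretic peptide, showed a smaller difference in sums, with 604 CPM in KO1 and 474 in KO2, against 304 in WT1 and 274 in WT2 (log2 0.90 ± 0.33, edgeR adjusted p = 0.987). Its median level per well was 14.4 per 10000 in KO1 and 7.26 in KO2, against 3.39 in WT1 and 4.06 in WT2. Both KO animals were above both WT animals for Nppa and Nppb, in sums and in medians. The nicotinamide riboside kinase Nmrk2, an enzyme of NAD synthesis, was counted at 583 CPM in KO1 and 365 in KO2, against 229 in WT1 and 136 in WT2 (log2 1.37 ± 0.41). Its difference was 1.00 without KO1. With wells thinned as described below for free RNA, Nppb was seen in 97.4% of KO cardiomyocyte wells and 80.6% of KO wells of other cells, against 82.6% and 84.4% in WT, and Nmrk2 in 84.8% and 50% in KO, against 51.9% and 53.3% in WT. The pooled WT shares of both lay below those of wells of other cells, which were 29 of WT1 and 16 of WT2. The thinned WT cardiomyocyte wells were 97 of WT1 and 167 of WT2. By animal, Nppb was seen in 73.2% of WT1 and 88.0% of WT2 cardiomyocyte wells, and Nmrk2 in 66.0% and 43.7%. With this unlike mix the pooled shares do not settle the order, and the source of these UMIs was not tested. Fhl1, a LIM protein of the sarcomere that is known to be raised in hypertrophy, stood at 246 and 142 CPM in KO1 and KO2, against 81.2 and 59.5 CPM in WT1 and WT2 (log2 1.46 ± 0.41).

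Skeletal actin, Acta1, depended on KO1. It stood at 1100 CPM in KO1 and 414 in KO2, against 295 in WT1 and 312 in WT2 (log2 1.32 ± 0.48, and 0.45 without KO1). Gdf15, a secreted stress cytokine, was scarce but parted the animals, with 14.6 CPM in KO1 and 6.41 in KO2, against 2.27 in WT1 and 0.614 in WT2 (log2 2.88 ± 1.09, and 2.18 without KO1). Myh7, the fetal and slow myosin heavy chain, did not part them: it stood at 273 CPM in KO1 and 188 in KO2, against 140 in WT1 and 202 in WT2 (log2 0.43 ± 0.37, and 0.13 without KO1). All of these had an edgeR adjusted p of 0.987.

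**Figure D2:**
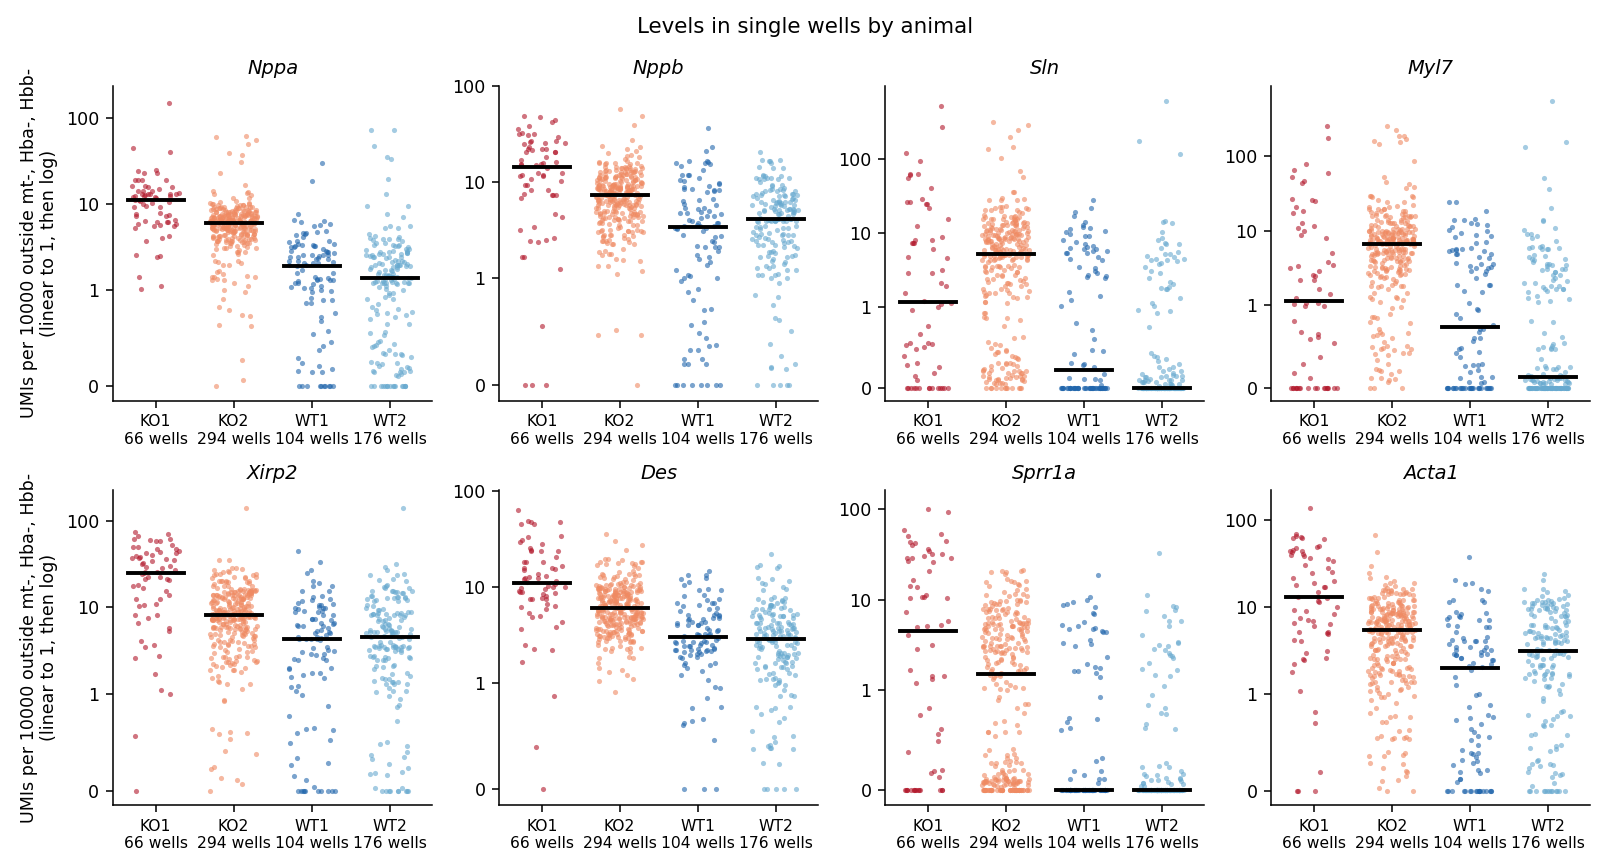
Points are single wells and bars are medians, by animal, for 8 genes; the axis counts UMIs per 10000 outside mt-, Hba- and Hbb- genes and is linear to 1 and logarithmic above. Medians of Nppa, Nppb, Xirp2 and Des are highest in KO1, next in KO2 and lowest in WT1 and WT2, while Sln reaches 530.8 in KO1 and 322.8 in KO2, against 27.7 in WT1 and 622.1 in WT2.

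Atrial genes had the largest median difference of the 29 gene lists with all animals and wells. The order did not hold without KO1 (interferon-stimulated list 1.10, atrial 1.05), with thinned wells (cell cycle 1.73, fetal 1.36, atrial 1.33) or without the largest wells (cell cycle 1.45, atrial 1.22). The erythroid marker list had a larger median of 6.38, which was 1.61 without KO2. Of 16 listed, 13 were tested; 11 were higher in KO, 10 of them with both KO animals above both WT animals, and 7 had an unadjusted p under 0.05. Their median log2 difference was 2.29, against 1.05 without KO1 and 2.97 without KO2. Sln encodes sarcolipin, an inhibitor of the calcium pump SERCA that is typical of atrium; it stood at 4845 CPM in KO1 and 735 in KO2, against 160 in WT1 and 215 in WT2 (log2 3.90 ± 0.84, edgeR adjusted p = 0.987, DESeq2 adjusted p = 1.73e-05). The atrial essential light chain Myl4 stood at 734 CPM in KO1 and 233 in KO2, against 46.5 in WT1 and 58.5 in WT2 (log2 3.20 ± 0.58). The atrial regulatory light chain Myl7 stood at 2548 CPM in KO1 and 809 in KO2, against 208 in WT1 and 295 in WT2 (log2 2.74 ± 0.58). For all 3 genes the KO animals did not overlap the WT animals, and KO1 was well above KO2. Without KO1 the log2 differences were 1.97 for Sln, 2.15 for Myl4 and 1.69 for Myl7.

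A few wells held most of these transcripts in KO1. Sln, Myl4 and Myl7 together reached at least 1% of UMIs in 5 of 66 KO1 wells (7.58%, exact 95% interval 2.51 to 16.8%) and in 10 of 294 KO2 wells (3.40%, 1.64 to 6.17%), against 0 of 104 WT1 wells (0%, up to 3.48%) and 4 of 176 WT2 wells (2.27%, 0.623 to 5.72%). In KO1, 2 wells held 90.5% of the UMIs of the 3 genes; they carried 8.51% and 5.05% of such UMIs, with Myl2, a gene of the rule, at 13.7 and 1.55 per 10000, against a KO1 median of 38.4. The 9 KO2 wells with at least 2% held Myl2 at 25.9 to 69.8 per 10000, against a KO2 median of 78.5. The richest well of all, at 12.6%, came from WT2, with Myl2 at 33.4 per 10000 against a WT2 median of 117; the 2 other WT2 wells above 2% held 84.3 and 97.6. Wells rich in the 3 atrial genes thus occurred in both KO animals and in WT2. With the 2 KO1 wells left out, a step chosen after seeing the data, Sln stood at 423 CPM in KO1 and 722 in KO2, against 157 in WT1 and 211 in WT2 (log2 1.64). Myl4 then had a log2 difference of 1.73, Myl7 of 1.26 and Nppa of 1.19, and both KO animals stayed above both WT animals for each of them.

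Outside the atrial-rich wells the KO wells were also higher. With every well at or above 1% left out, the 3 genes took 0.148% of UMIs in KO1 and 0.164% in KO2, against 0.0731% in WT1 and 0.0334% in WT2. The median well held 1.15 Sln UMIs per 10000 in KO1 and 5.19 in KO2, against 0.221 in WT1 and 0 in WT2. Free RNA that spreads over a chip can add UMIs to wells. Wells of the same chips with under 5% cardiomyocyte markers and at least 1% of another cell's markers were counted beside the cardiomyocyte wells. All were thinned to the same 10000 UMIs. Myh6 and Myl2 were seen in 100% of these wells of other cells. Whether such RNA was free or came from a cardiomyocyte in the same well was not tested. Sln was seen in 73.6% of 349 KO cardiomyocyte wells and 47.2% of 36 KO wells of other cells, against 33.3% of 264 and 37.8% of 45 in WT. Of the 36 KO wells of other cells, 32 came from KO1 and 4 from KO2, whereas 56 of the 349 KO cardiomyocyte wells came from KO1. By animal, Sln was seen in 51.8% of KO1 and 77.8% of KO2 cardiomyocyte wells, against 44.3% in WT1 and 26.9% in WT2, so the KO1 share lay near that of the KO wells of other cells. Before thinning, UMIs outside mt-, Hba- and Hbb- genes were counted over all wells, also those too shallow to thin. Their median was 18456 in KO1 and 129223 in KO2 cardiomyocyte wells, against 54128 in WT1 and 74269 in WT2. In the wells of other cells it was 67397 and 243155 in KO1 and KO2, against 101675 and 106776 in WT1 and WT2. In WT, then, the pooled share of cardiomyocyte wells with Sln was not above that of wells of other cells, which were 29 of WT1 and 16 of WT2. Nppa was seen in 97.1% of KO cardiomyocyte wells and 86.1% of KO wells of other cells, against 70.8% and 48.9% in WT. Its levels in single wells thus hold some RNA that was also found in wells of other cells, and that part was not measured apart.

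**Figure D3:**
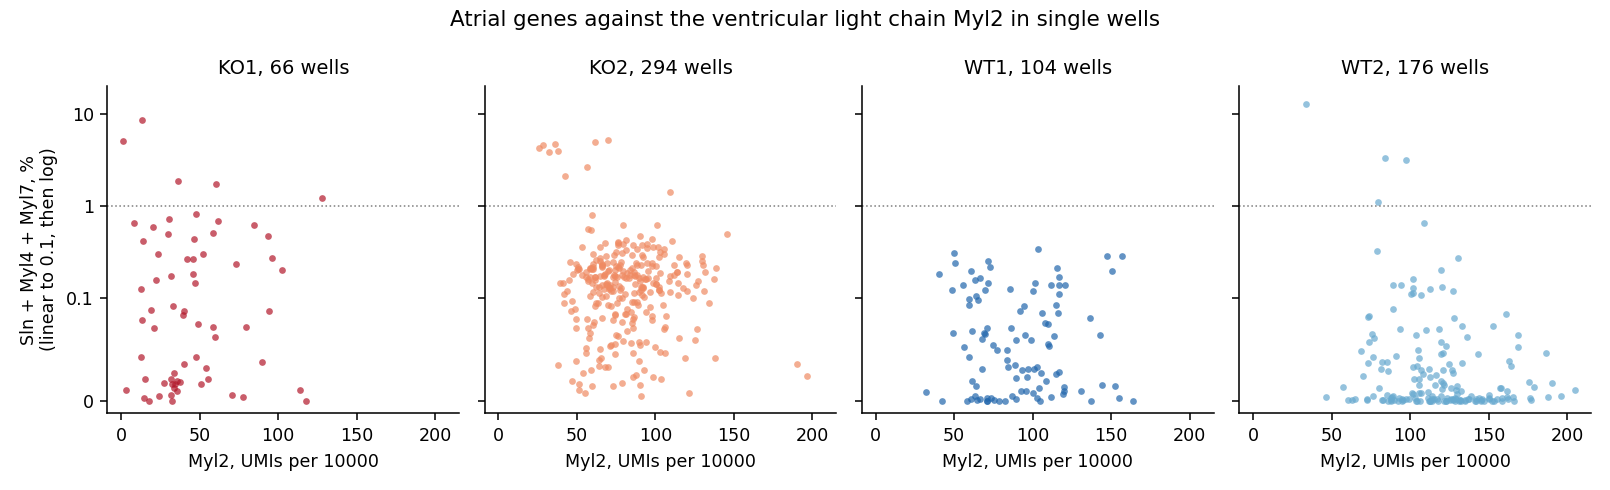
In each panel, 1 animal, a point is a well; Myl2 UMIs per 10000 run along the x axis and the summed share of Sln, Myl4 and Myl7 along the y axis (linear to 0.1%, then log), with 1% dotted. Above the dotted line lie 5 wells of KO1, 10 of KO2, 0 of WT1 and 4 of WT2.

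Promoter windows of leading atrial and natriuretic genes are shown because TEAD factors, the partners of YAP and TAZ, bind the letters CATTCC, which read GGAATG on the other strand. They run from 250 bases before the start of the gene to 50 after it, on the strand of the gene, from RefSeq on GRCm38.p6; Nppa is at chr4:148000472-148000771 (plus strand), Nppb at chr4:147985650-147985949 (plus), Myl7 at chr11:5898733-5899032 (minus) and Myl4 at chr11:104550413-104550712 (plus). Capitals mark the motif.
Nppa: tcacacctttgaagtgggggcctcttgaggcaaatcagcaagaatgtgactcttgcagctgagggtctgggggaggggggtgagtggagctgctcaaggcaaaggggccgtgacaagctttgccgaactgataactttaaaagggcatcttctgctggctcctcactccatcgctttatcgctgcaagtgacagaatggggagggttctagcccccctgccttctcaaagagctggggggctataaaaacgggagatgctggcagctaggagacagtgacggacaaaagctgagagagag
Nppb: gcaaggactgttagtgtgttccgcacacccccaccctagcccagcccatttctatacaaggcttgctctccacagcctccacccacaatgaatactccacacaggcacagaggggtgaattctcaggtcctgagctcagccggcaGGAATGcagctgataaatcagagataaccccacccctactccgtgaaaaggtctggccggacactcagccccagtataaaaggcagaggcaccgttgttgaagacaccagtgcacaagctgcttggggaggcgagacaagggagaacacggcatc
Myl7: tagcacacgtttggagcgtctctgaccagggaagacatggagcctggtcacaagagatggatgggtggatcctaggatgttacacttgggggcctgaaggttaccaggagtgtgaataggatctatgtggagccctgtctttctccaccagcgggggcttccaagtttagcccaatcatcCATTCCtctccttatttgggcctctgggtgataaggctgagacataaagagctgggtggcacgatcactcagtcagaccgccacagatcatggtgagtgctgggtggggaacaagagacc
Myl4: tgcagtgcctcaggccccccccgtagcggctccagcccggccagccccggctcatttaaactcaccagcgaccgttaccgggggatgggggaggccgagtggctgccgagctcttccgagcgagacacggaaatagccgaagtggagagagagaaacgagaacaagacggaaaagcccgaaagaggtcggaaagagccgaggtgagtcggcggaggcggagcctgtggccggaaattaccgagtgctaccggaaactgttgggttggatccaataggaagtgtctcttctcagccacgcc
Myl7 holds the letters 70 bases and Nppb 105 bases before the start, and the windows of Nppa and Myl4 do not hold them. Over all 32851 windows of this length, 14.7% hold them on either strand. Of the 12 genes with the smallest p among those higher in KO, named below, 11 have a window in the table and 1, Myl7, holds the letters. A match is only a match of letters.

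By the smallest p among well detected genes, the 12 leading genes higher in KO were Myl4, Myl9, Myl7, Sln, Sprr1a, Pdlim7, Nppa, Cdkn1a, Des, Nme1, Fhl1 and Ift43. Sprr1a, a small proline-rich protein known to be induced in stressed cardiomyocytes, stood at 433 CPM in KO1 and 176 in KO2, against 63.0 in WT1 and 87.4 in WT2 (log2 2.01 ± 0.49, and 1.22 without KO1; edgeR adjusted p = 0.987, DESeq2 adjusted p = 0.0377). Its median per well was 4.52 per 10000 in KO1 and 1.51 in KO2, against 0 in WT1 and 0 in WT2. In thinned wells Sprr1a was seen in 57.6% of KO cardiomyocyte wells and 47.2% of KO wells of other cells, against 24.6% and 24.4% in WT, and Pdlim7 in 60.2% and 55.6% in KO, against 38.6% and 37.8% in WT. The pooled WT shares of both lay within 1 percentage point of those of wells of other cells, which were 29 of WT1 and 16 of WT2. By animal, Sprr1a was seen in 34.0% of WT1 and 19.2% of WT2 cardiomyocyte wells, and Pdlim7 in 39.2% and 38.3%. Pdlim7, an adaptor of the Z-disc, stood at 568 CPM in KO1 and 176 in KO2, against 70.9 in WT1 and 88.1 in WT2 (log2 2.23 ± 0.56, and 1.15 without KO1). Cdkn1a, which encodes an inhibitor of cyclin-dependent kinases, was the most even of the 12 between the KO animals, at 72.4 CPM in KO1 and 62.0 in KO2, against 25.7 in WT1 and 23.0 in WT2 (log2 1.46 ± 0.40). Nme1, a nucleoside diphosphate kinase, stood at 156 CPM in KO1 and 91.1 in KO2, against 50.3 in WT1 and 35.6 in WT2 (log2 1.52 ± 0.42).

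Z-disc and filament genes differed in both directions, none past the adjusted threshold. Of 25 tested, 11 were higher and 14 lower in KO, with a median log2 difference of -0.18 that became 0.18 without KO1. This list holds genes of the rule, such as Tnnt2 and Tnni3, which chose the wells, so its counts are partly a description. Des encodes desmin, the intermediate filament that ties Z-discs together; it stood at 831 CPM in KO1 and 400 in KO2, against 225 in WT1 and 199 in WT2 (log2 1.54 ± 0.42, and 0.92 without KO1; edgeR adjusted p = 0.987). Median Des per well was 11.1 per 10000 in KO1 and 5.97 in KO2, against 2.98 in WT1 and 2.84 in WT2. Xirp2, an actin-binding protein of the intercalated disc, stood at 924 CPM in KO1 and 535 in KO2, against 339 in WT1 and 288 in WT2 (log2 1.22 ± 0.38, and 0.77 without KO1). The small heat-shock proteins Hspb1 and Hspb2 were also higher, Hspb2 with 379 CPM in KO1 and 294 in KO2, against 186 in WT1 and 177 in WT2 (log2 0.89 ± 0.33). Over the 24 chaperone genes, 13 were higher and 11 lower, with a median of 0.17.

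**Figure D4:**
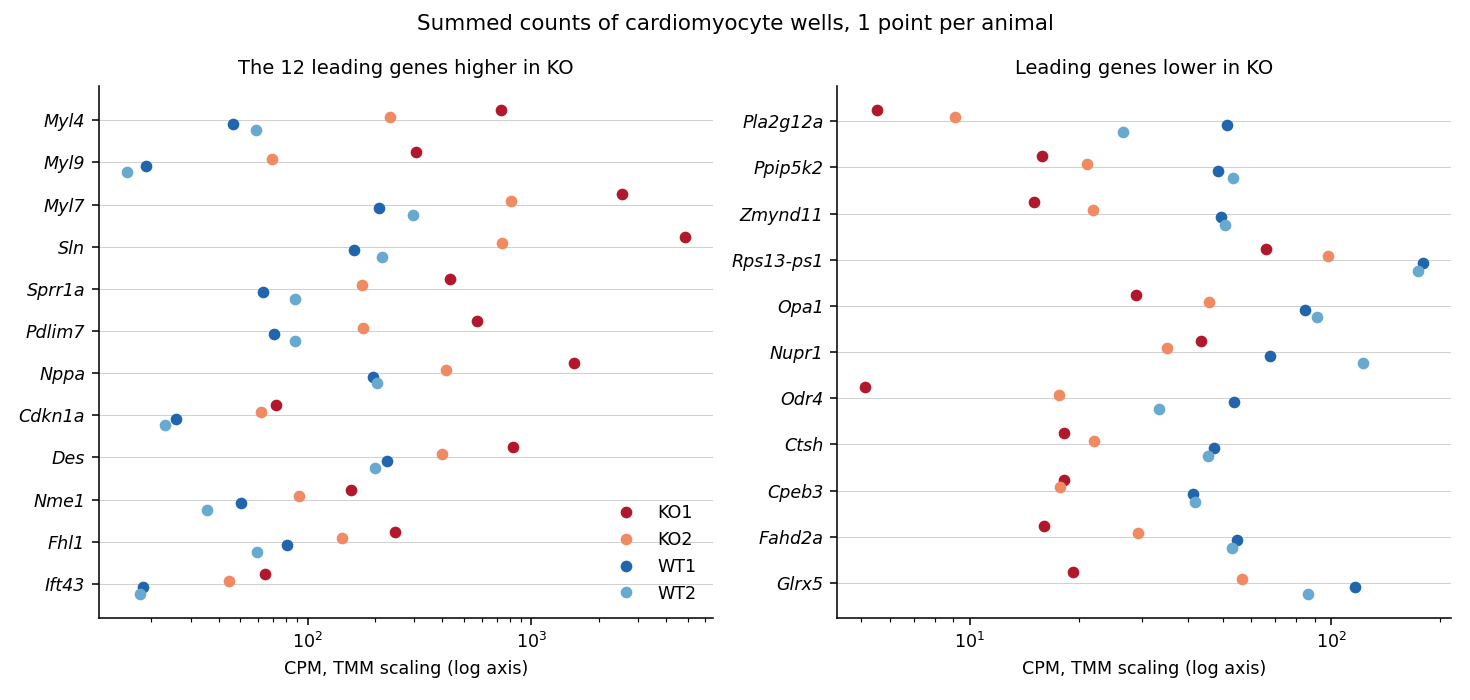
Each row is a gene and each point an animal, as CPM with TMM scaling on a log axis. In the left panel both KO animals lie to the right of both WT animals for all 12 genes, and in the right panel to the left for the 11 genes shown, which the choice of these genes fixes; KO1 is the farther out of the pair for Myl4, Myl7 and Sln.

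The leading genes lower in KO were Pla2g12a, Ppip5k2, Zmynd11, Rps13-ps1, Opa1, Nupr1, Odr4, Ctsh, Cpeb3, Fahd2a and Glrx5. Pla2g12a, a phospholipase A2, stood at 5.52 CPM in KO1 and 9.10 in KO2, against 51.5 in WT1 and 26.6 in WT2 (log2 -2.40 ± 0.60, edgeR adjusted p = 0.987, DESeq2 adjusted p = 0.0432). A single well held 43.9% of its UMIs in WT1 and 11.2% in WT2, and KO1 had 28 UMIs in 4 of 66 wells. Opa1, the GTPase that fuses inner mitochondrial membranes, stood at 28.8 CPM in KO1 and 45.8 in KO2, against 84.7 in WT1 and 91.2 in WT2 (log2 -1.23 ± 0.40). Glrx5, a mitochondrial glutaredoxin of iron-sulfur assembly, stood at 19.3 CPM in KO1 and 56.7 in KO2, against 116 in WT1 and 85.9 in WT2 (log2 -1.40 ± 0.55, and -0.83 without KO1). The remaining genes had log2 differences of -1.11 to -1.90, and Rps13-ps1 is a processed pseudogene whose reads can come from its parent gene. Nupr1 was not stable: it had a log2 difference of -1.27, but 0.44 without wells above 3 times the median UMIs of their animal.

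Genes of energy metabolism were lower on balance, and nearly all of that rested on KO1. Of the 56 nuclear respiratory chain genes, 54 had a log2 difference below 0, 22 had both KO animals below both WT animals, and none had an unadjusted p under 0.05. Their median was -0.47, which became -0.06 without KO1 and -1.09 without KO2. Together they took 9.67% of UMIs outside mt-, Hba- and Hbb- genes in KO1 and 16.8% in KO2, against 16.3% in WT1 and 18.0% in WT2. KO2 thus lay between the WT animals and KO1 alone lay far below. Uqcrh, a subunit of respiratory complex III, stood at 690 CPM in KO1 and 1649 in KO2, against 2048 in WT1 and 2177 in WT2 (log2 -0.85 ± 0.46, and -0.36 without KO1; edgeR adjusted p = 0.987). Of 24 genes of the tricarboxylic acid cycle and ketone use, 23 were lower, with a median of -0.47 and of -0.12 without KO1. Of 32 genes of fatty acid uptake and oxidation, 26 were lower, with a median of -0.51 and of -0.13 without KO1. Angptl4, an inhibitor of lipoprotein lipase, went the other way at 6.12 CPM in KO1 and 26.7 in KO2, against 2.97 in WT1 and 1.94 in WT2 (log2 2.76 ± 0.96, and 3.46 without KO1). KO1 was also the animal with the high mitochondrial share and the few UMIs; the part of these in the metabolic values was not tested.

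Calcium cycling genes were mostly lower, though not Sln. Of 24 tested, Sln among them, 16 had a log2 difference below 0, and the median was -0.53, or -0.25 without KO1. Pln and Ryr2, genes of the rule, are in this list. Of the 12 rule genes, 10 were lower in KO, with a median of -0.59. They chose the wells, so counts that hold them are a description, and the list was not counted without them. Atp2a2, the calcium pump SERCA, stood at 1395 CPM in KO1 and 2074 in KO2, against 2443 in WT1 and 3296 in WT2 (log2 -0.73 ± 0.39, and -0.47 without KO1). Camk2d, a calcium-dependent kinase, stood at 26.6 CPM in KO1 and 33.8 in KO2, against 74.0 in WT1 and 48.7 in WT2 (log2 -1.02 ± 0.43, edgeR adjusted p = 0.987). Sri, the calcium-binding protein sorcin, was higher with 164 CPM in KO1 and 64.2 in KO2, against 29.6 in WT1 and 35.8 in WT2 (log2 1.80 ± 0.51, and 0.97 without KO1). Phospholamban, Pln, a gene of the rule, is given as a description: it stood at 544 CPM in KO1 and 1414 in KO2, against 1846 in WT1 and 2404 in WT2. Gja1, the main gap junction protein of ventricle, stood at 26.2 CPM in KO1 and 108 in KO2, against 173 in WT1 and 151 in WT2 (log2 -1.26 ± 0.61, and -0.58 without KO1). Of the 22 genes of the intercalated disc and membrane skeleton, 16 were lower, with a median of -0.37.

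Hippo pathway genes had the median of all genes, and targets of YAP and TAZ one slightly above it. Of 27 Hippo genes tested, 11 were higher and 16 lower, 4 did not overlap in each direction, none had an unadjusted p under 0.05, and the median was -0.09. Yap1 stood at 16.8 CPM in KO1 and 8.72 in KO2, against 5.64 in WT1 and 12.3 in WT2 (log2 0.49 ± 0.77, and -0.05 without KO1). Tead1 stood at 60.2 CPM in KO1 and 31.6 in KO2, against 44.8 in WT1 and 54.7 in WT2 (log2 -0.12 ± 0.46, and -0.66 without KO1). Among 26 YAP and TAZ targets, 16 were higher and 10 lower, with a median of 0.05, so 16 of 26 stood higher beside 46.4% of all genes. Summed, the targets took 0.537% of UMIs outside mt-, Hba- and Hbb- genes in KO1 and 0.340% in KO2, against 0.298% in WT1 and 0.249% in WT2, both KO animals above both WT animals. Most of that sum was Ankrd1, at 48.4 per 10000 in KO1 and 29.4 in KO2, against 25.8 in WT1 and 21.4 in WT2. In the list, 1 gene had an unadjusted p under 0.05 in each direction, Ajuba above and Fosl1 below. Both rested on few wells. All 82 Ajuba UMIs of KO1 lay in 1 of 66 wells. Fosl1 had UMIs in 2 of 104 WT1 wells and 3 of 176 WT2 wells, with 89.5% and 87.5% of them in 1 well. Ccn2, a matricellular protein and a widely used target, stood at 66.3 CPM in KO1 and 84.9 in KO2, against 47.3 in WT1 and 30.7 in WT2 (log2 0.96 ± 0.41, edgeR adjusted p = 0.987). Ccn1, another such target, stood at 14.8 CPM in KO1 and 38.5 in KO2, against 22.2 in WT1 and 30.6 in WT2 (log2 0.02 ± 0.59, and 0.54 without KO1). Ankrd1, a target that also marks stressed cardiomyocytes, stood at 2262 CPM in KO1 and 1644 in KO2, against 1462 in WT1 and 1254 in WT2 (log2 0.52 ± 0.36, and 0.28 without KO1).

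**Figure D5:**
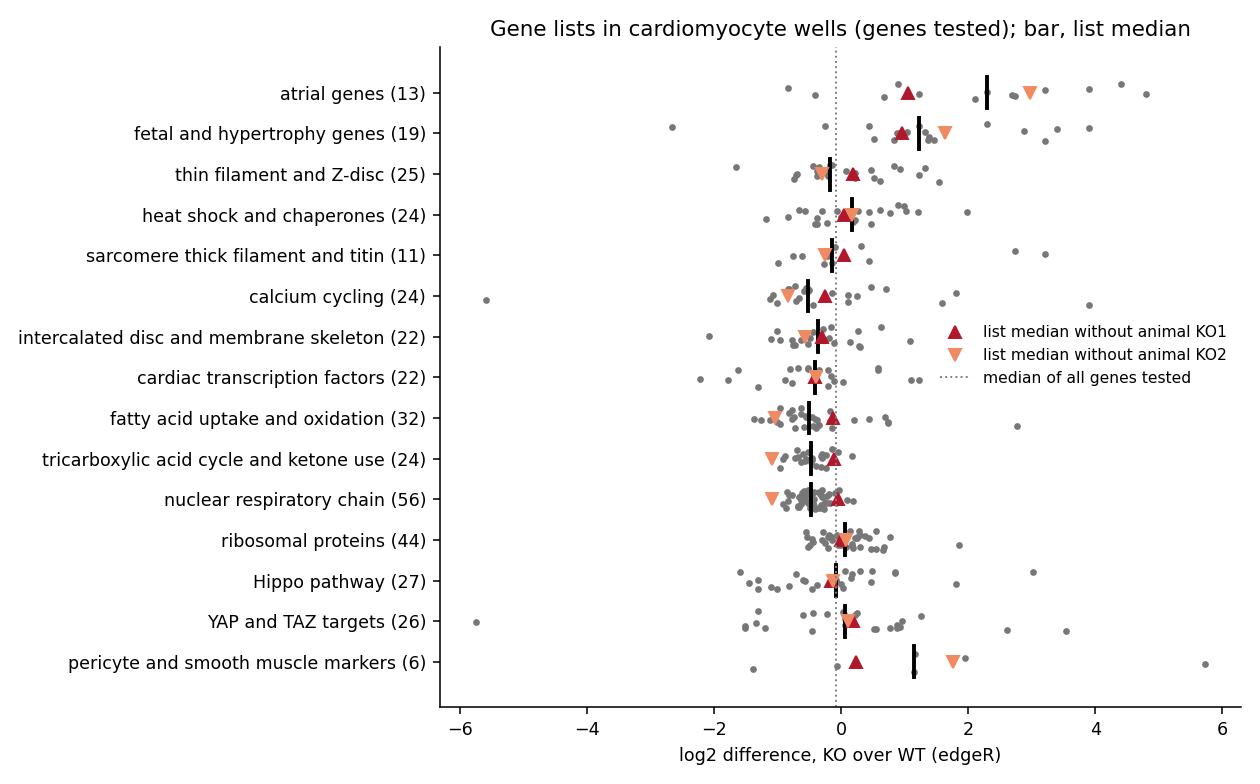
Each grey point is a tested gene of the list on the left, placed by its log2 difference, KO over WT; black bars are list medians, triangles the medians without KO1 or KO2, and the dotted line the median of all genes. Atrial and fetal lists lie to the right with and without either KO animal, while the respiratory chain median lies at -0.47 and moves to -0.06 without KO1.

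Of the cell cycle list, 19 of 26 tested genes were higher and the median was 1.22, but -0.25 without KO1. Mki67, a proliferation marker, stood at 17.2 CPM in KO1 and 13.8 in KO2, against 3.13 in WT1 and 4.46 in WT2 (log2 2.02 ± 0.75, edgeR adjusted p = 0.987). It was seen in 7.58% of KO1 and 15.99% of KO2 wells, against 14.42% in WT1 and 9.09% in WT2. The share of wells with Mki67 thus did not part the genotypes. A single well held 40.23% of its UMIs in KO1 and 25.63% in KO2, against 40.0% in WT1 and 73.91% in WT2. Interferon-stimulated genes had 16 of 20 higher, 7 of them without overlap of the animals, with a median of 0.58 and of 1.10 without KO1. Xaf1, an interferon-induced gene of apoptosis control, stood at 29.6 CPM in KO1 and 23.3 in KO2, against 6.58 in WT1 and 3.84 in WT2 (log2 2.35 ± 0.64, DESeq2 adjusted p = 0.0612). In KO1, however, 1 well held 98.0% of the 150 Xaf1 UMIs, and only 4 of 66 wells had any. Inflammatory cytokines and chemokines had 20 of 22 higher, with a median of 0.75 and of 0.14 without KO1; Ccl2, a monocyte attractant, stood at 115 CPM in KO1 and 51.7 in KO2, against 35.5 in WT1 and 20.6 in WT2 (log2 1.57 ± 0.53, and 0.89 without KO1). MHC genes had 13 of 17 lower, with a median of -0.98 and of -0.25 without WT1, and 1 WT1 well held 83.2% of the H2-Aa and 78.4% of the H2-Ab1 UMIs of that animal. Lyz2, a macrophage gene of the rule, stood at 114 CPM in KO1 and 65.9 in KO2, against 312 in WT1 and 115 in WT2, and its part in the MHC values was not tested. The receptor of leukotriene B4 named in the series title, Ltb4r1, had 0 UMIs in KO1 and 3 in KO2, against 0 in WT1 and 0 in WT2; a count of 0 allows up to 0.535 CPM without TMM scaling in KO1, 0.224 in WT1 and 0.101 in WT2. It was thus not detectable at this depth in 3 of the 4 animals.

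Markers of other cells moved with some of these lists. The 6 pericyte and smooth muscle markers had a median log2 difference of 1.15, against 0.23 without KO1, and 3 of them had both KO animals above both WT animals. Myh11, the myosin of smooth muscle, stood at 65.7 CPM in KO1 and 21.2 in KO2, against 0.861 in WT1 and 0.775 in WT2 (log2 5.72 ± 0.81, and 4.70 without KO1; edgeR adjusted p = 0.696, DESeq2 adjusted p = 4.79e-11). Acta2 stood at 374 CPM in KO1 and 206 in KO2, against 135 in WT1 and 128 in WT2 (log2 1.14 ± 0.39, and 0.65 without KO1), and Tagln at 46.4 and 16.6 CPM in KO1 and KO2, against 7.12 and 9.20 CPM in WT1 and WT2 (log2 1.94 ± 0.67, and 1.02 without KO1). Myl9, a leading gene above, is a light chain of smooth muscle too and stood at 305 CPM in KO1 and 69.6 in KO2, against 18.9 in WT1 and 15.5 in WT2 (log2 3.44 ± 0.70, and 2.02 without KO1). The 6 markers summed to 0.122% of UMIs in KO1 and 0.0561% in KO2, against 0.0414% in WT1 and 0.0405% in WT2, and none was at 0 in any animal. In KO1, 54.1% of Myh11 UMIs lay in 1 well, and in KO2 32.4%. For Myl9 these shares were 54.0% in KO1, where 27 of 66 wells had any, and 7.87% in KO2. The part of the pericyte and smooth muscle markers in the differences was not tested. Endothelial markers summed to 0.0586% in KO1 and 0.0505% in KO2, against 0.0364% in WT1 and 0.0469% in WT2. T or NK, B and adipocyte markers were at or near 0 throughout. Haemoglobin transcripts were higher in KO wells: Hba-a1 stood at 35.7 CPM in KO1 and 1590 in KO2, against 3.44 in WT1 and 6.52 in WT2, with 1 KO2 well at 15.01% haemoglobin.

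The wells were then set beside the other 493 kept wells of the same animals and chips, which had less than 5% cardiomyocyte markers or more RNA of another cell. Under 5% were 140 of 198 such wells in KO1 and 22 of 91 in KO2, against 62 of 106 in WT1 and 37 of 98 in WT2. The rest reached 5% and failed a limit on another cell's markers. A difference in the KO effect between the 2 kinds of well was tested for 14239 genes with edgeR, with the animal as a block; none passed an adjusted p of 0.05 (0.0% called), and 460 had an unadjusted p under 0.05 (3.23%), in 313 with a more positive effect in cardiomyocyte wells (2.2%) and in 147 with a more negative one (1.03%). With 1 animal left out, 11 genes passed without KO1, 118 without KO2, 9 without WT1 and 4 without WT2. Nppa was higher in KO to a like degree in both: the other wells held 305 CPM in KO1 and 286 in KO2, against 70.0 in WT1 and 65.8 in WT2, and the KO effect in cardiomyocyte wells minus that in the others was -0.03 ± 0.53 (SE, log2). For Des it was -0.01 ± 0.36 and for Sprr1a -0.62 ± 0.63. Sln had an effect that was larger by 1.62 ± 1.14 in cardiomyocyte wells, with 215 CPM in KO1 and 405 in KO2, against 139 in WT1 and 50.1 in WT2 in the other wells. Cdkn1a differed by 1.20 ± 0.38 (unadjusted p = 0.0120, edgeR adjusted p = 1), with 182 and 169 CPM in KO1 and KO2, against 137 and 138 CPM in WT1 and WT2 in the other wells. The leading differences were therefore not shown to belong to the cardiomyocyte wells taken here alone. Many of the other wells also reached 5% cardiomyocyte markers, so this comparison cannot tell whether the differences are particular to cardiomyocytes.

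Within animals, some genes varied with the mitochondrial share of the well and others did not. Gene counts thinned as above were used, over the 56, 293, 97 and 167 wells of KO1, KO2, WT1 and WT2 deep enough to thin. Spearman's rho between Nppa and the mitochondrial share was -0.27, -0.26, -0.24 and -0.30 in this order. Cryab, a small heat-shock protein that is abundant in muscle, gave -0.01, -0.27, -0.44 and -0.53 in the same order. For Sln rho was between -0.01 and 0.09, for Myl7 between -0.06 and -0.03 and for Nppb between -0.12 and -0.02 in the 4 animals. Other genes that stood higher in KO rose with the mitochondrial share. Xirp2 gave 0.27, 0.24, 0.39 and 0.48, Ankrd1 0.31, 0.15, 0.20 and 0.35, and Des 0.15, 0.08, 0.18 and 0.38. Sprr1a gave 0.36 in KO1 and -0.01, -0.03 and -0.08 in the others. Acta1 (-0.24, -0.22, -0.35 and -0.29) and Nmrk2 (-0.09, -0.24, -0.27 and -0.25) fell with it. The part of the mitochondrial share in the KO differences was not tested. Myoglobin, Mb, gave 0.26, 0.34, 0.42 and 0.47, and Myh6, the adult myosin heavy chain, 0.05, 0.43, 0.63 and 0.67; both are genes of the rule. Nppa and Nppb went together only weakly (0.29, 0.15, 0.10 and 0.23), as did Sln and Myl7 (0.24, 0.20, 0.15 and 0.20). Acta1 and Cryab gave the steadiest pair, at 0.35, 0.34, 0.33 and 0.36. These wells share a chip and an animal and had differing depths before thinning, so the values are descriptions. Wells too shallow to thin are not in them.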

How the data were processed

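Single wells of 4 chips from hearts of 2 KO and 2 WT mice gave polyA RNA libraries; per the labels, repeated slow spins parted the cells into fractions, and Nextera XT was used. The authors deposited counts per gene and well. In all 4315 wells these sums equal the deposited number of distinct gene and UMI pairs, so they are UMI counts. STAR 2.5.2b, featureCounts and Subread 1.4.6-p1 with mm10 were used, per the submitters' processing notes; no source used here gives the annotation, the strand setting or the UMI rule.

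Of 29245 gene columns, 28604 matched a symbol; 70 spike-in or transgene columns, with 4.87e-05% of UMIs, were left out. Counts were summed over wells per animal, named in the per-well reports, and compared with edgeR 4.0.16 (quasi-likelihood, TMM, filterByExpr, Benjamini-Hochberg at 0.05) in R 4.3.3; DESeq2 1.42.0 was the other tool. Single values per animal used exact permutation tests (scipy 1.17.1). Depth was 5605035 to 72787373 UMIs per animal, so KO1 limits precision. The edgeR and DESeq2 fits were run on simulated sums per animal, with the same dispersion for all genes. Such sums do not model single wells that hold most UMIs of a gene. No doublet caller was run; leaving out wells above 3 times the median UMIs of their animal was an alternative. The kept wells hold none of the 20 negative and 20 positive controls.

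Named genes were Stk4 and Stk3, then the 12 higher and 12 lower genes with the smallest edgeR p among those with a mean of at least 20 CPM, UMIs in at least 20% of wells of both animals of the higher genotype and no overlap of the genotypes, without mt-, Hba-, Hbb- and rule genes; 1 of the lower genes is not reported here; list examples are by smallest p. The wells and the 29 gene lists and 13 marker lists were chosen with earlier results of these data known. Any other gene named was picked with its values in view. Plots used matplotlib 3.10.9.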

Additional observations from a re-analysis of the deposited data

Results flagged for a closer look

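The non-cardiomyocyte chips entered no comparison above, but 10 of their 2857 kept wells reached 5% cardiomyocyte markers and 3 also met the limits on other cell markers, 1 from KO2 and 2 from WT2. They were noted because wells outside the comparisons met the rule. For comparison, none of the 40 control wells was kept: the 20 negative controls had a median of 128.5 UMIs and the 20 positive controls of 174.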

How the results depend on the processing

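With DESeq2, 65 genes were called higher and 11 lower in KO, against 0 and 0 with edgeR (332 and 136 at an unadjusted p under 0.05). Without a filter on low counts edgeR called 85 and 14, and with cardiomyocyte markers of at least 10%, where KO1 kept 1 well, it called 1 higher gene (Plekhh2, seen after its values). Leaving out 1 animal gave 4 to 92 higher and 0 to 76 lower calls, the most without KO2; the 4 without KO1 were haemoglobin genes. The other settings, apart from the replicate block below and including the 2 KO1 wells left out, gave 0 and 0. For the difference in KO effect between wells, 37 genes were called without a filter and 4 to 118 with 1 animal left out. KO minus WT, leaving out 1 animal, ran from -31.9 to 19.5 points for the share of wells (1.16 without WT2), from -0.426 to 22.7 points for the mitochondrial share, from -55659 to 106587 for median UMIs and from -410.5 to 70.0 for genes; the share of wells turned without KO1 or WT2, the mitochondrial share and the genes without KO1, and the UMIs without KO2. Of 50 genes in 16 planned settings and 1 added, 40 kept their sign. With markers of at least 10%, Ift43 (-0.60), Tagln (-0.06), Ankrd1 (-0.31), Hspb2 (-0.13), Yap1 (-0.66), Ccl2 (-0.35) and Nupr1 (1.58) turned; Nupr1 also turned when thinned (0.56) or without the largest wells (0.44). With wells under 50% mitochondrial UMIs Stk3 (-0.24), Tead1 (0.83) and Ccn1 (-0.21) turned, and with other markers under 0.1% Yap1 (-0.72) and Ccn1 (-0.15). Leaving out 1 animal, Yap1 ran from -0.05 to 1.21, Tead1 from -0.66 to 0.27 and Ccn1 from -0.84 to 0.54. Over the planned settings the median of the atrial list ran from 0.30 to 2.97 and of the fetal list from 0.82 to 1.63, and that of all genes was -0.45 without KO2 and 0.07 without WT2. The cause was not tested.

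The replicate block by animal number gave 15 higher and 2 lower calls, of which Myl4, Sln, Myl9, Myl7, Nppa, Pdlim7 and Sprr1a are among the leading genes above; Ccn1 turned to -0.12. Animals with the same number share only that number: over 12240 genes, KO1 minus KO2 correlated with WT1 minus WT2 at 0.064. Depth limits KO1, where Stk4 and Xaf1 rest on 2 and 4 wells.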

Other observations

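Some transcripts, chosen after their values were seen, parted the genotypes in both cell fractions. ENSMUSG00000095406, which has no symbol in the tables used, stood in all kept wells of the cardiomyocyte fraction at 1.07 CPM (here of UMIs outside mt-, Hba- and Hbb- genes, without TMM scaling) in KO1 and 0.67 in KO2, against 41.6 in WT1 and 68.0 in WT2. In the other fraction it stood at 1.44 in KO1 and 2.69 in KO2, against 49.1 in WT1 and 73.1 in WT2. Gm12091 and the pseudogene Rps13-ps5 parted them too; Rps13-ps5 stood at 7.16 in KO1 and 6.44 in KO2, against 60.6 in WT1 and 54.0 in WT2 in the cardiomyocyte fraction, and at 11.8 and 9.16 in KO1 and KO2, against 68.2 and 61.2 in WT1 and WT2 in the other. E330017L17Rik was seen mostly in the cardiomyocyte fraction, at 1.52 in KO1 and 0.0172 in KO2, against 15.2 in WT1 and 18.2 in WT2. No chip held wells of both genotypes, in either fraction, so genotype cannot be told apart from chip in any of these comparisons.

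The leading atrial genes were also higher in KO wells of the other fraction, where likewise no chip held both genotypes. Sln stood there at 13.0 CPM in KO1 and 21.7 in KO2, against 2.33 in WT1 and 0.746 in WT2, and Myl4 at 20.2 in KO1 and 32.3 in KO2, against 4.05 in WT1 and 1.44 in WT2.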
